A study of Homo sapiens with 18 samples.

Results

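The genes described here drive or carry out mitosis, from entry into mitosis to the separation of the daughter cells. The set holds 50 genes in 11 roles, of 19401 genes listed in at least 1 of the 3 deposited tables of knockout (KO) against wild type (WT). Members were found by gene symbol and joined between tables by Entrez ID, and all 50 were listed and tested in each table. The RNA came from MCF10A cells, which descend from human mammary epithelium and are immortal but non-tumorigenic, in 18 samples of 5 groups, all cultured at less than 30 passages with no treatment. CBFB KO and its own WT had 3 samples each. The RUNX1 experiment had 4 samples each of its WT and of the clones labelled KO1 and KO2. KO cells were made with CRISPR-Cas9 and grown from single-cell colonies, with 1 CBFB clone and 2 RUNX1 clones, so that what is particular to a clone and what follows from the loss of the gene cannot be told apart.

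Entry into mitosis is driven by CDK1 bound to cyclin A or cyclin B, switched on by CDC25 phosphatases and helped by Polo-like and Aurora kinases. Kinesins and microtubule-binding proteins then build the spindle, kinetochores attach chromosomes to it, and the spindle assembly checkpoint holds back the anaphase-promoting complex until attachment is complete. Most of these transcripts are made late in the cell cycle, under the factors MYBL2 and FOXM1, and their levels in a culture follow the number of cells that are dividing. CBFB is the partner of the RUNX factors that does not itself bind DNA. The comparisons ask which transcripts respond both to deletion of CBFB and to deletion of RUNX1, each deleted alone.

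A shared promoter element is shown for 7 members because it is known to time the expression of late cell cycle genes, and because these members span those that fell in all 3 tables, in both RUNX1 clones or in no table. The cell cycle genes homology region (CHR) was searched as TTTGAA or TTCGAA, on both strands, so that TTCAAA is the first of these read on the other strand and TTCGAA reads alike on both. The 30 bases below are RefSeq sequence of build GRCh38.p14, written 5′ to 3′ on the strand of the gene, with the element in capitals. All of the 7 printed here lie before the start of the RefSeq transcript, in the promoter. Matches of other members lay elsewhere too, as in KIF20B, at positions 24 and 30 after the start. Those of TOP2A began 194 and 151 bases before the start. MKI67 has a second TTTGAA, 47 bases before the start, that is not printed.
CDC25B: ctgctgttatttTTCGAAtatataaggagg
CDC25C: gctggcggaaggTTTGAAtggtcaacgcct
CDCA8: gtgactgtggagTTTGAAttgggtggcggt
KIF11: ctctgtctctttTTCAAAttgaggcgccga
CCNB2: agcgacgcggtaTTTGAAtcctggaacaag
PLK1: cccagcgccgcgTTTGAAttcggggaggag
MKI67: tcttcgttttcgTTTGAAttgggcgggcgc
They are at chr20:3796260-3796289 on the plus strand for CDC25B, chr5:138331817-138331846 on the minus strand for CDC25C, chr1:37692481-37692510 on the plus strand for CDCA8 and chr10:92593090-92593119 on the plus strand for KIF11. Those of CCNB2, PLK1 and MKI67 are at chr15:59105105-59105134 (plus), chr16:23678848-23678877 (plus) and chr10:128126435-128126464 (minus). The capitals begin 38 bases before the transcript start in CDC25B and 23 bases before it in CDCA8, and the other 5 lie between these distances. CDC25B, CDC25C, CDCA8 and KIF11 fell in all 3 tables, CCNB2 and PLK1 in both RUNX1 clones, and MKI67 passed the test in no table.

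Every value was taken or computed from the authors' deposited tables. A table gives, for each gene, the mean of normalized counts over the libraries compared, the log2 fold change of KO against WT, the standard error (SE) of the fold change and a p-value with its adjusted value. It gives no value per library, so that neither the value of each sample nor whether the samples of KO and WT overlap can be given. The levels of WT and KO printed here were computed from the mean and the fold change. Values after ± are SEs on the log2 scale, and a gene is said to have fallen or risen where the authors' Wald test (DESeq2, Benjamini-Hochberg adjustment over the genes tested in the table) gave an adjusted p-value under 0.05. The p-values measure the spread between repeats of single clones.

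The targeted genes were read first. CBFB mRNA was at 3.40% of WT in CBFB KO (log2 fold change -4.88 ± 0.14). RUNX1 mRNA rose by 0.54 ± 0.089 in RUNX1 KO1 and by 0.46 ± 0.13 in RUNX1 KO2 (adjusted p = 1.45e-08 and 0.00470), so transcript levels of the whole gene do not check these edits, and the clones are called by their labels. The sums of the mean normalized counts were 2.02e+07, 1.81e+07 and 1.65e+07, and reads per library are unknown. The KO2 table was the least precise, since the median SE of genes with a mean of 100 or more was 0.21 there, 0.12 for CBFB KO and 0.10 for KO1. Of 7 mammary epithelial markers the keratins KRT5 and KRT6A had means of at least 77141. The endothelial markers all stood below a mean of 10, as did the fibroblast and leukocyte markers listed in each table other than COL1A1 and CD68.

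The mitotic genes were lower in each KO than in its WT. In CBFB KO 28 of 50 members fell (56%), against 7.97% of all 14975 genes tested. RUNX1 KO1 had 44 members that fell (88%), against 19.9% of 16394 genes. RUNX1 KO2 had 26 members that fell (52%), against 6.08% of 15636 genes. Fewer cycling cells and less of each transcript per cell cannot be told apart in these bulk samples.

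No member rose in any table by the Wald test of DESeq2, and 0 were higher at an unadjusted p under 0.05, where 11.7%, 19.7% and 8.76% of all genes rose in CBFB KO, KO1 and KO2. The sign of the fold change was negative for 49, 50 and 49 of the members in the order CBFB KO, KO1 and KO2. The exceptions were MYBL2 in CBFB KO, at 0.017 ± 0.089, and PTTG1 in RUNX1 KO2, at 0.013 ± 0.37. Members are expressed at or above about the middle of the tables, with means of 440.4 to 11249 in the CBFB table, and genes with many reads pass a test more easily. Among genes at least as high as the lowest member, 8.41%, 29.6% and 6.98% fell in the order of the tables above.

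The changes were moderate. The median log2 fold change of the members was -0.27 in CBFB KO, -0.50 in RUNX1 KO1 and -0.63 in RUNX1 KO2, that is 82.8%, 70.6% and 64.8% of WT. Over all genes tested the medians were -0.0087, -0.0017 and 0.021. No member passed both the adjusted p and a 2-fold change in any table, in either direction. At this rule 1.26% of all genes were lower and 1.72% higher in the CBFB table, 1.57% and 3.36% in that of KO1, and 1.58% and 3.9% in that of KO2. Members spread over an SD of 0.13, 0.17 and 0.17 around their medians, and the members' median SEs were 0.093, 0.091 and 0.24.

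**Figure D1:**
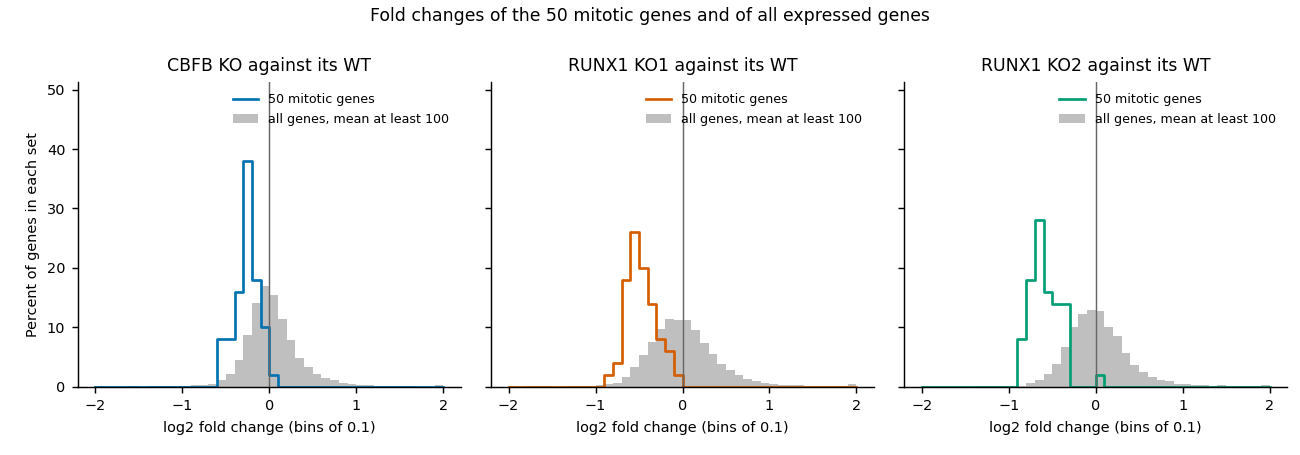
Distribution of log2 fold changes of KO against WT, in bins of 0.1, as a percent of the 50 mitotic genes (colored outline) and of all genes whose mean reached 100 normalized counts (grey bars, values past 2 placed in the end bins), in the 3 tables. The medians of the outlined genes are -0.27, -0.50 and -0.63, and the 2 members just right of 0 are MYBL2 in CBFB KO and PTTG1 in RUNX1 KO2.

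A decrease in all 3 was found for 14 of the 50 members (28%), against 2.33% of the 14500 genes tested in all 3, and 0 rose, against 4.33%. They were CCNA2, CCNB1, CDK1, CDC25B, CDC25C, AURKA, NEK2, CDCA8, BUB1, NUF2, KIF11, KIF20A, TPX2 and DLGAP5. A further 12 fell in CBFB KO and RUNX1 KO1, and 11 in both RUNX1 clones, which share their WT libraries. CENPE and ASPM fell in CBFB KO alone, KIF4A in RUNX1 KO2 alone, and 7 members in RUNX1 KO1 alone. KIF14, ECT2 and MKI67 passed the test in no table. For these partial overlaps and single-table calls no share of all genes is given, so whether they exceed such a share is not shown.

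**Figure D2:**
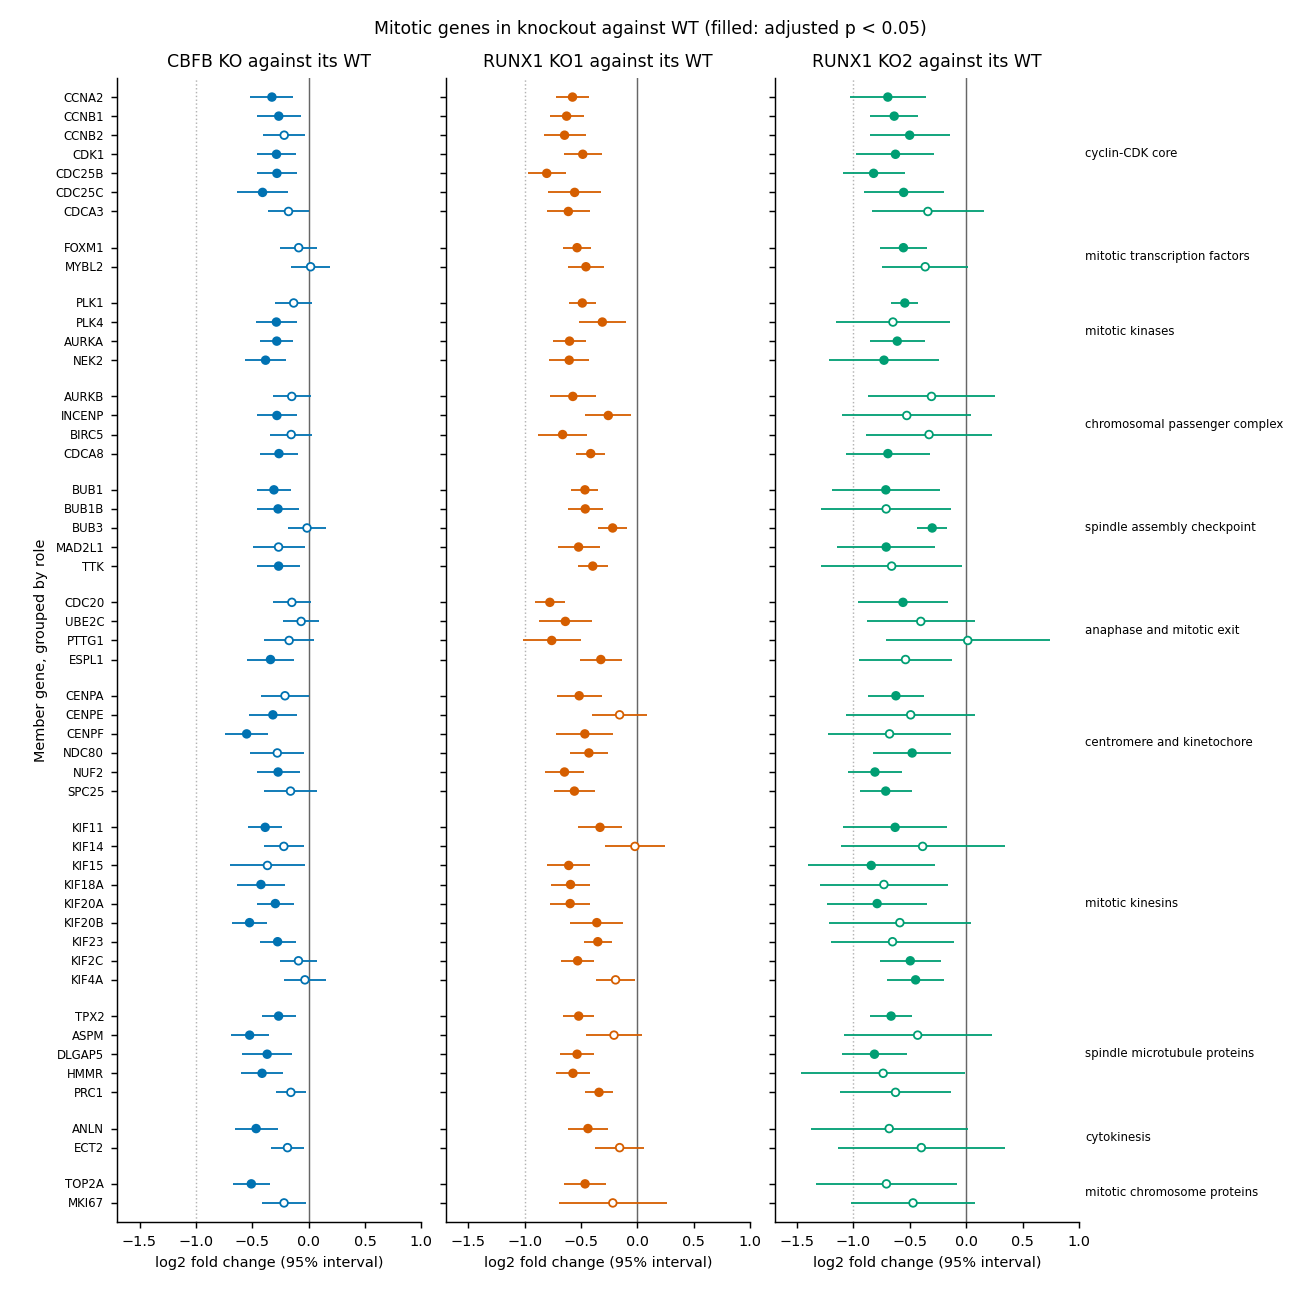
Log2 fold change of KO against WT for each of the 50 mitotic genes, in rows grouped by role, with 95% intervals as lines and filled points where the adjusted p-value was under 0.05. The dotted line marks a 2-fold decrease, which no point crosses, and intervals are widest in RUNX1 KO2, where 26 points are filled.

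Of the 7 genes at the core of mitotic entry, 5 fell in CBFB KO, all 7 fell in KO1 and 6 fell in KO2. CDK1, the kinase whose activity defines mitosis, stood at 3685 normalized counts in WT and 3023 in CBFB KO, at 3038 and 2170 in the KO1 table, and at 2847 and 1843 in the KO2 table. It fell by 0.29 ± 0.089, 0.49 ± 0.087 and 0.63 ± 0.18. CCNB1, the B-type cyclin that brings CDK1 to full activity, had WT levels of 7194 in the CBFB experiment and 7648 in the KO1 table. It fell by 0.27 ± 0.099 in CBFB KO, by 0.63 ± 0.077 in KO1 and by 0.64 ± 0.11 in KO2, so that both clones were at about the same share of WT, 64.7% and 64.2%. CCNA2, the cyclin of S phase and early mitosis, fell by 0.33 ± 0.097, 0.58 ± 0.076 and 0.70 ± 0.17.

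The CDC25 phosphatases remove the inhibitory phosphates from CDK1. CDC25B had the lowest fold change of all members in KO1, falling from 3947 to 2259 normalized counts (-0.80 ± 0.085, 57.2% of WT), and fell by 0.82 ± 0.14 in KO2, from 3716 to 2102. Its change in CBFB KO was smaller, a fall of 0.28 ± 0.090. CDC25C fell by 0.41 ± 0.12, 0.56 ± 0.12 and 0.56 ± 0.18, at lower levels of 502.4 in the WT of the CBFB experiment and 468.6 in that of the KO1 table. CCNB2, the other B-type cyclin, fell by 0.65 ± 0.095 in KO1 and 0.50 ± 0.18 in KO2, and its value in CBFB KO was -0.22 ± 0.095 (adjusted p = 0.0918). CDCA3, which helps to degrade the CDK1 inhibitor kinase WEE1, fell by 0.61 ± 0.098 in KO1, with values of -0.18 ± 0.091 in CBFB KO and -0.34 ± 0.25 in KO2 that did not pass the test.

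Both transcription factors of the mitotic program fell in RUNX1 KO1 and neither in CBFB KO. FOXM1 fell by 0.54 ± 0.064 in KO1, from 3314 to 2286 normalized counts, and by 0.56 ± 0.11 in KO2, from 3125 to 2124. In CBFB KO its level was 3901 against 4148 in WT, a log2 fold change of -0.089 ± 0.083 (adjusted p = 0.517). MYBL2 (B-MYB), which acts with the MuvB complex on mitotic promoters, fell by 0.46 ± 0.081 in KO1. It was 4572 against 4517 in CBFB KO (0.017 ± 0.089, adjusted p = 0.925) and 3168 against 4078 in KO2 (-0.36 ± 0.19, adjusted p = 0.238).

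All 4 mitotic kinases fell in KO1, and 3 each in CBFB KO and in KO2. AURKA, the Aurora kinase of centrosomes and spindle poles, fell by 0.28 ± 0.074, 0.60 ± 0.076 and 0.61 ± 0.12. NEK2, which lets the centrosomes separate, fell by 0.38 ± 0.094, 0.61 ± 0.091 and 0.73 ± 0.25. PLK1, the Polo-like kinase that acts from mitotic entry to cytokinesis, fell by 0.49 ± 0.062 in KO1 and by 0.54 ± 0.060 in KO2, where no member had a smaller SE, and was at 91.2% of WT in CBFB KO (-0.13 ± 0.083, adjusted p = 0.278). PLK4, which starts centriole duplication, fell by 0.29 ± 0.094 in CBFB KO and 0.31 ± 0.11 in KO1, with -0.65 ± 0.26 in KO2 (adjusted p = 0.0692).

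The chromosomal passenger complex corrects wrong attachments of chromosomes and guides cytokinesis, and its 4 genes all fell in KO1. CDCA8 (borealin) fell in the other tables too, by 0.26 ± 0.084 in CBFB KO, by 0.41 ± 0.065 in KO1 and by 0.69 ± 0.19 in KO2. INCENP, the scaffold, fell by 0.28 ± 0.091 in CBFB KO and by 0.26 ± 0.10 in KO1 (adjusted p = 0.0360), a call that was lost when the fold changes were centred on their median (adjusted p = 0.0570). AURKB, the kinase of the complex, fell by 0.57 ± 0.10 in KO1, from 1605 to 1079 normalized counts. BIRC5 (survivin) fell by 0.66 ± 0.11 there, from 3367 to 2125. Neither passed the test in CBFB KO, with -0.15 ± 0.085 for AURKB and -0.16 ± 0.096 for BIRC5, or in KO2, with -0.31 ± 0.29 and -0.33 ± 0.29.

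Among the 5 genes of the spindle assembly checkpoint, 3 fell in CBFB KO, all 5 fell in KO1 and 3 fell in KO2. The kinase BUB1 fell by 0.31 ± 0.078, 0.47 ± 0.061 and 0.71 ± 0.25. BUB1B (BUBR1), a part of the inhibitor of the anaphase-promoting complex, fell by 0.27 ± 0.094 and 0.46 ± 0.080 in CBFB KO and KO1, and was -0.71 ± 0.29 in KO2 (adjusted p = 0.0892). TTK (MPS1), the kinase at the top of the checkpoint, fell by 0.27 ± 0.098 and 0.40 ± 0.068 in the same tables, and was -0.66 ± 0.32 in KO2 (adjusted p = 0.172). In KO2 the fold changes of these 3 genes were alike in size, and only that of BUB1, which had the smallest SE, passed the test. MAD2L1 fell by 0.52 ± 0.095 in KO1 and 0.71 ± 0.22 in KO2. BUB3, which is also made outside mitosis, had the smallest decreases of the 5, 0.22 ± 0.067 in KO1 and 0.30 ± 0.068 in KO2, and was at 99.0% of WT in CBFB KO.

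Of the 4 genes of anaphase and mitotic exit, all 4 fell in KO1 and 1 each fell in CBFB KO and KO2. CDC20, the activator of the anaphase-promoting complex, went from 7743 to 4519 normalized counts in KO1, a fall of 0.78 ± 0.069 (adjusted p = 6.92e-28). It fell by 0.56 ± 0.20 in KO2, from 7242 to 4909, and was 6348 against 7040 in CBFB KO (-0.15 ± 0.087, adjusted p = 0.240). PTTG1 (securin), which holds separase inactive, fell by 0.76 ± 0.13 in KO1, from 4320 to 2550, and stood at 4157 against 4119 in KO2 (0.013 ± 0.37). UBE2C, the ubiquitin-conjugating enzyme that works with the complex, fell by 0.64 ± 0.12 in KO1, with -0.067 ± 0.082 in CBFB KO and -0.40 ± 0.24 in KO2. ESPL1 (separase), the protease that cuts cohesin, was the only one of the 4 that fell in CBFB KO, by 0.34 ± 0.10, and fell by 0.32 ± 0.094 in KO1.

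At the centromere and kinetochore, 3 of 6 genes fell in CBFB KO, 5 fell in KO1 and 4 fell in KO2. NUF2, a subunit of the NDC80 complex that binds microtubules, fell in all 3 tables by 0.27 ± 0.097, 0.65 ± 0.088 and 0.81 ± 0.12. The NDC80 subunits NDC80 and SPC25 fell in both RUNX1 clones, NDC80 by 0.43 ± 0.085 and 0.48 ± 0.18 and SPC25 by 0.56 ± 0.091 and 0.71 ± 0.12. CENPA, the histone variant that marks centromeres, fell by 0.52 ± 0.10 and 0.62 ± 0.13 in these clones, with -0.21 ± 0.11 in CBFB KO. CENPF had the lowest fold change of all members in CBFB KO, where it went from 7062 to 4823 normalized counts (-0.55 ± 0.098, 68.3% of WT), and fell by 0.47 ± 0.13 in KO1. The kinetochore motor CENPE fell by 0.32 ± 0.11 in CBFB KO, with -0.16 ± 0.13 in KO1 and -0.49 ± 0.29 in KO2.

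Of 9 mitotic kinesins 5 fell in CBFB KO, 7 fell in KO1 and 5 fell in KO2. KIF11 (Eg5), the motor that pushes the spindle poles apart, fell by 0.39 ± 0.078, 0.33 ± 0.10 and 0.63 ± 0.23, the last with an adjusted p of 0.0486. KIF20A, needed for cytokinesis, fell by 0.30 ± 0.084, 0.60 ± 0.091 and 0.79 ± 0.23. KIF20B fell by 0.52 ± 0.078 in CBFB KO, from 2395 to 1665 normalized counts, and by 0.36 ± 0.12 in KO1. KIF18A, which limits chromosome movement before anaphase, fell by 0.42 ± 0.11 and 0.59 ± 0.089, and KIF23, the motor of centralspindlin, by 0.28 ± 0.082 and 0.35 ± 0.063, in CBFB KO and KO1. Over the 9 kinesins the fold changes in CBFB KO ran from -0.52 in KIF20B to -0.033 in KIF4A.

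KIF15, which backs up KIF11, had the lowest fold change of all members in KO2, -0.84 ± 0.29 or 55.8% of WT (adjusted p = 0.0261), and fell by 0.61 ± 0.098 in KO1. KIF2C, which takes microtubules apart at kinetochores, fell by 0.53 ± 0.075 and 0.50 ± 0.14 in the RUNX1 clones and was -0.091 ± 0.083 in CBFB KO. KIF4A, a motor of chromosome arms and the central spindle, fell by 0.45 ± 0.13 in KO2, with -0.19 ± 0.090 in KO1 (adjusted p = 0.0731) and -0.033 ± 0.094 in CBFB KO. KIF14 stayed closest to WT in KO1, at 98.5% (-0.022 ± 0.14), with -0.22 ± 0.090 in CBFB KO and -0.39 ± 0.37 in KO2.

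Among 5 spindle microtubule proteins 4 fell in CBFB KO, 4 fell in KO1 and 2 fell in KO2. TPX2, the activator of AURKA on the spindle, fell by 0.27 ± 0.077, 0.52 ± 0.069 and 0.67 ± 0.094. DLGAP5 (HURP), which stabilizes fibers near chromosomes, fell by 0.37 ± 0.11, 0.54 ± 0.079 and 0.81 ± 0.15. HMMR fell by 0.41 ± 0.094 and 0.57 ± 0.076 in CBFB KO and KO1, and its value in KO2, -0.74 ± 0.37, was large but imprecise. ASPM, a spindle pole protein, fell by 0.52 ± 0.086 in CBFB KO, from 5265 to 3663 normalized counts, with -0.21 ± 0.13 in KO1 and -0.43 ± 0.33 in KO2. PRC1, which bundles microtubules at the midzone, fell by 0.34 ± 0.062 in KO1, with -0.16 ± 0.069 in CBFB KO.

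In the cytokinesis genes, ANLN (anillin), the scaffold of the contractile ring, fell by 0.47 ± 0.098 in CBFB KO and 0.44 ± 0.090 in KO1, with -0.68 ± 0.36 in KO2. ECT2, the exchange factor that sets up the ring, passed the test in no table, with -0.19 ± 0.075 (adjusted p = 0.0580), -0.16 ± 0.11 and -0.40 ± 0.38. The 2 chromosome proteins are common markers of dividing cells. TOP2A, the topoisomerase that untangles chromosomes, fell by 0.51 ± 0.084 in CBFB KO and 0.46 ± 0.093 in KO1, and was -0.71 ± 0.32 in KO2 (adjusted p = 0.131). MKI67, which encodes the Ki-67 antigen, was 10399 against 12098 normalized counts in CBFB KO, 4559 against 5304 in KO1 and 3594 against 4985 in KO2. Its log2 fold changes were -0.22 ± 0.10, -0.22 ± 0.24 and -0.47 ± 0.28 (adjusted p = 0.114, 0.519 and 0.313), so MKI67 passed the test in no table. In CBFB KO the 95% interval ran from -0.42 to -0.021 (Wald test, unadjusted p = 0.0299), and the call was missed after adjustment only.

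Per kilobase of the longest transcript, CDC20 had the highest mean of the members in the CBFB table, at 3767 normalized counts, and KIF15 the lowest, at 125. In the RUNX1 tables PTTG1 stood at 3210 and 3867 and CDC20 at 3450 and 3419, and KIF15 was again lowest, at 91.9 and 79.1. For 13 members RefSeq lists pseudogenes named after them, 5 of them for UBE2C and 4 for NEK2, and reads shared with such copies may be split, so the values of these members are uncertain to that extent.

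CBFB KO and each RUNX1 clone share no library, and the difference of their fold changes was tested (two-sided normal test of the difference over its combined SE, Benjamini-Hochberg over all genes tested in both tables). Against RUNX1 KO1, 15 of 50 members differed, where 9.84% of 14940 genes did. Against RUNX1 KO2, 6 of 50 differed, where 2.9% of 14503 genes did. Each of these members was lowered less in CBFB KO than in the clone. Each KO was set against the WT of its own experiment, so the deleted gene and the experiment cannot be told apart here. WT levels differed between the experiments for some members more than for others. That of MKI67 was 12098 in the CBFB table and 5304 in the KO1 table, that of CDC20 7040 and 7743. The fold change in CBFB KO was the less negative for 39 members against KO1 and for 48 against KO2.

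CDC20 differed most from KO1, by 0.63 (95% interval 0.41 to 0.84, adjusted p = 2.04e-06). PTTG1 followed with 0.59 (0.25 to 0.93), UBE2C with 0.57 (0.29 to 0.85), CDC25B with 0.52 (0.28 to 0.77) and BIRC5 with 0.51 (0.22 to 0.80). FOXM1 differed from both clones, by 0.45 (0.24 to 0.65) from KO1 and by 0.47 (0.21 to 0.73) from KO2. PLK1 did so too, by 0.36 (0.15 to 0.56) and 0.41 (0.21 to 0.61), as did CDC25B, with 0.54 (0.21 to 0.87) from KO2, and NUF2, with 0.38 (0.12 to 0.63) and 0.54 (0.23 to 0.84). SPC25 and TPX2 passed against KO2 alone, with 0.55 (0.23 to 0.88) and 0.40 (0.16 to 0.64). MYBL2 differed from KO1 by 0.47 (0.24 to 0.71), and its interval against KO2 ran from -0.037 to 0.80.

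For several members the fold changes in CBFB KO and KO1 lay close together. ESPL1 differed by -0.014 (-0.29 to 0.26), INCENP by -0.023 (-0.30 to 0.25), ANLN by -0.027 (-0.29 to 0.23), PLK4 by 0.025 (-0.25 to 0.30) and TOP2A by -0.044 (-0.29 to 0.20). The largest difference in the other direction was that of ASPM, -0.32 (-0.62 to -0.013), with an adjusted p of 0.187.

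**Figure D3:**
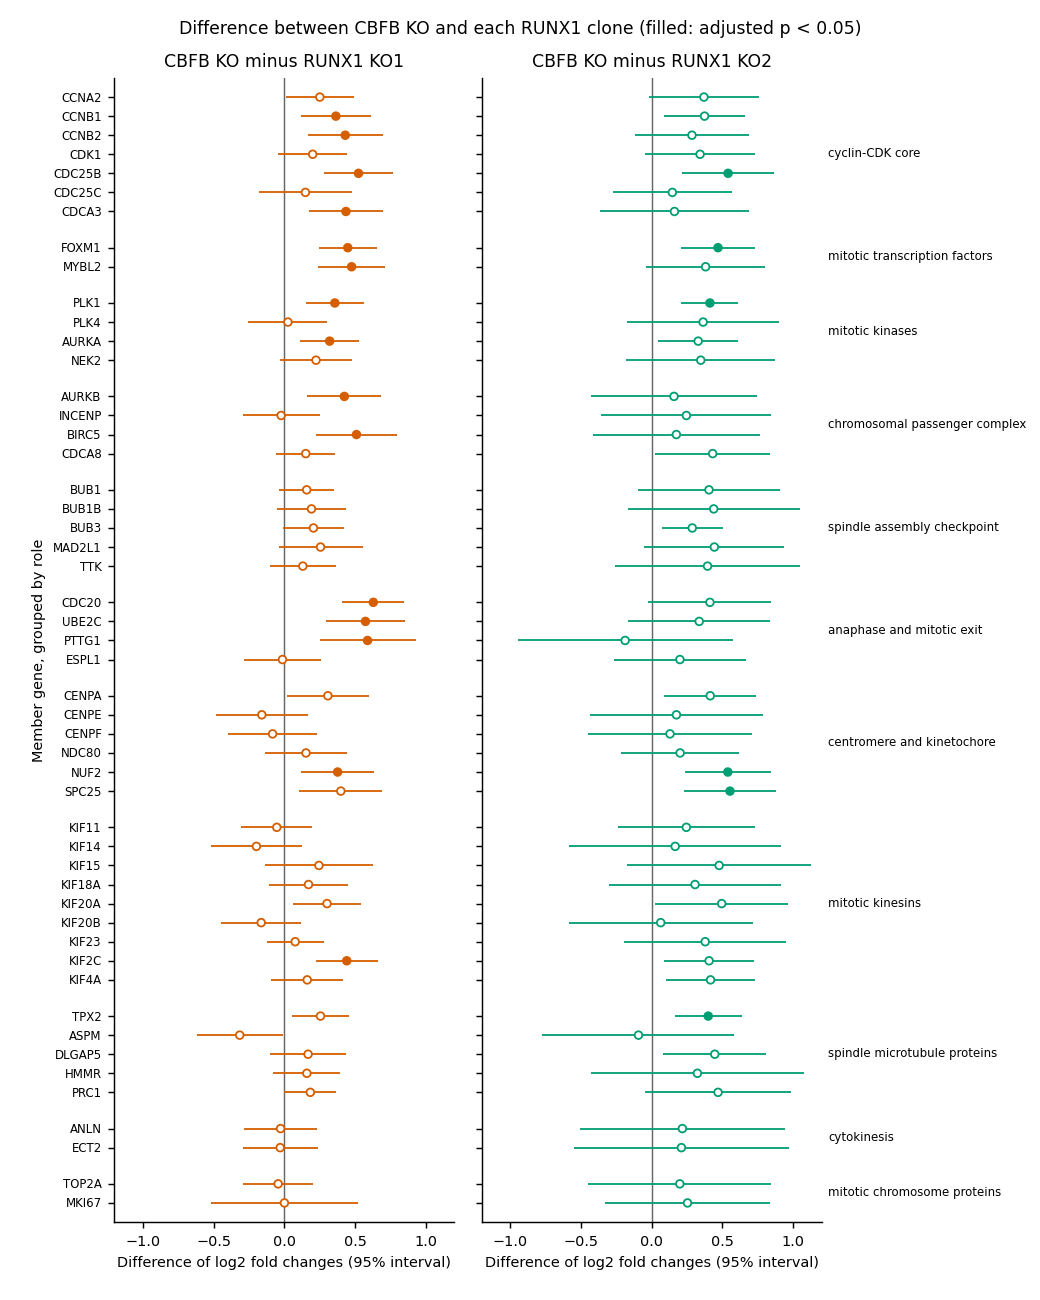
Difference of log2 fold changes, CBFB KO minus RUNX1 KO1 (left) and minus RUNX1 KO2 (right), for each of the 50 mitotic genes grouped by role, with 95% intervals as lines and filled points where the adjusted p-value was under 0.05. The 15 and 6 filled points all lie to the right of 0, where CBFB KO is lowered less.

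The relation of the fold change to transcript length differed between the tables. Over the 50 members the correlation of log2 fold change with log2 length of the longest transcript was r = 0.67 in RUNX1 KO1, -0.37 in CBFB KO and -0.098 in RUNX1 KO2 (Spearman 0.69, -0.33 and 0.016), given as a description since members share their libraries. Over all genes with a mean of at least 100 it was 0.26, -0.042 and -0.053. With the GC content of the transcript the correlation over the members was 0.54 in CBFB KO, stronger than that with length, -0.31 in KO1 and 0.29 in KO2 (Spearman 0.58, -0.32 and 0.30). The 10 members with the shortest transcripts (914 to 2137 bases, among them UBE2C, PTTG1, AURKB and CDC20) had a median of -0.59 in KO1, -0.19 in CBFB KO and -0.59 in KO2, and all 10 fell in KO1. The 10 with the longest transcripts (5468 to 12678 bases, among them MKI67, ASPM, CENPF and CENPE) had medians of -0.27, -0.33 and -0.52, and 6, 6 and 2 of them fell. The difference between CBFB KO and KO1 followed length with r = -0.75, and that between CBFB KO and KO2 with r = -0.21. When the trend on transcript length and GC content over all genes was removed, an alternative chosen after seeing the data for this comparison, 6 members differed from KO1 in place of 15. They were CDC25B, FOXM1, PLK1, CDC20, KIF2C and BUB3, and against KO2 CDC25B, FOXM1, PLK1 and SPC25 remained. No share of all genes is given after that removal, so whether these counts exceed such a share is not shown. UBE2C then differed from KO1 by 0.27 (adjusted p = 0.334), PTTG1 by 0.30 (adjusted p = 0.386) and AURKB by 0.15 (adjusted p = 0.656). The source of this relation was not tested.

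The same correction left the decrease in each table. Medians of the members became -0.25, -0.47 and -0.58 in that order of tables (CBFB KO, KO1, KO2). In CBFB KO the calls of CCNB1, CDK1, PLK4, TTK, CENPE and NUF2 were lost, with adjusted p-values of 0.0517 to 0.127, and those of CDCA3, PLK1, AURKB, CDC20 and PRC1 were gained. In KO2 the calls of CCNB2, NEK2, BUB1, MAD2L1, NDC80, KIF11 and KIF15 were lost, and those of MYBL2 and ESPL1 gained. In KO1 no call was lost, and CENPE, KIF4A and ASPM passed as well. The members that fell in all 3 became 11 in place of 14, with no share of all genes given after the correction. Of the 11, 8 were among the 14 and PLK1, CDC20 and ESPL1 joined, while CCNB1, CDK1, NEK2, BUB1, NUF2 and KIF11 left.

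**Figure D4:**
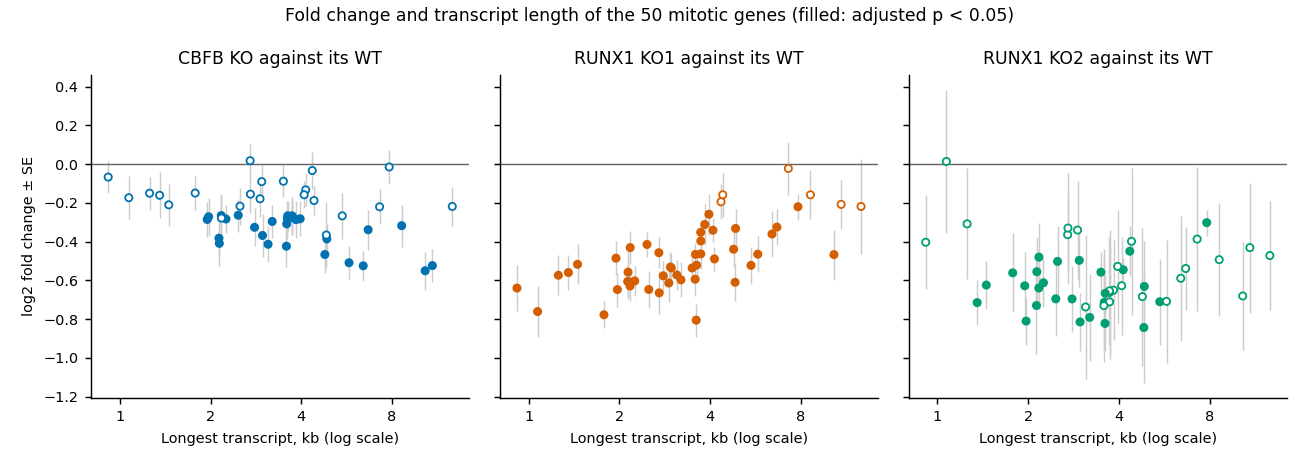
Log2 fold change (± SE) of the 50 mitotic genes against the length of the longest annotated transcript in kilobases (log scale), in the 3 tables, with filled points where the adjusted p-value was under 0.05. Points rise from left to right in RUNX1 KO1 (r = 0.67) and do not in CBFB KO (r = -0.37) or RUNX1 KO2 (r = -0.098).

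Promoter windows of 300 bases, from 250 before to 50 after the transcript start, were found in the RefSeq table for 43 members, and none for FOXM1, AURKA, BIRC5, BUB3, TTK, UBE2C and TPX2. A CHR element as printed above was in the window of 34 of the 43 (79.1%), against 19.5% of all 27305 genes with a window and 15.5% of those with a mean of at least 100. CCAAT, on either strand, was in that of 35 members (81.4%), against 39.7% of all. Both were in the windows of 29 members (67.4%), against 9.02% of all. The RUNX motif, searched as TGTGGT or TGCGGT on both strands, was in the windows of 8 members (18.6%), against 22.9% of all. Members with a CHR element had medians of -0.28 in CBFB KO, -0.47 for KO1 and -0.63 for KO2, and the 9 without had -0.27, -0.58 and -0.50. The ranges of both groups overlapped in each table. A match describes letters in this window and is not a site shown to be bound.

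Other genes of cell division, 95 in 7 lists, were lower in part. In CBFB KO 24 of the 93 tested fell and 2 rose, in KO1 58 of 93 fell and 3 rose, and in KO2 27 of 91 fell and 3 rose. The medians of -0.14, -0.29 and -0.39 lay between those of the members and 0. Of all genes tested 7.97%, 19.9% and 6.08% fell and 11.7%, 19.7% and 8.76% rose. Among genes at least as high as the lowest member 8.41%, 29.6% and 6.98% fell. Further kinetochore, spindle and cytokinesis genes had 7, 21 and 9 of 25 that fell, and condensin and cohesin genes 7, 12 and 5 of 14. Genes of G1/S and replication had 4, 11 and 8 of 17 that fell. The subunits and partners of the anaphase-promoting complex, with which the members CDC20 and UBE2C work, had medians of -0.062, -0.11 and -0.056, with 1 and 3 of 14 that fell in CBFB KO and KO1 and 0 of 12 in KO2, near the shares of all genes given above (7.97%, 19.9% and 6.08%). The 3 that fell in KO1, named after their values were seen, were UBE2S at -0.86 ± 0.12, below every member there, CDC26 at -0.76 ± 0.13 and ANAPC11 at -0.39 ± 0.10. UBE2S and ANAPC11 were not in the KO2 table. Genes of the DREAM and MuvB complexes, which repress or activate CHR promoters, had 2, 5 and 1 of 11 that fell. In CBFB KO and KO2 these counts are too small to set apart from the shares of all genes. Whether the 5 of 11 in KO1 exceed such a share was not tested.

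CDK inhibitor proteins moved in both directions. Of 7 genes 5 were tested in each table, and CDKN2A and CDKN2B were listed in none. Among the 5, 1 fell in each table, and 1, 2 and 2 rose in CBFB KO, KO1 and KO2. CDKN1A (p21), which stops CDKs in G1 and G2, rose by 0.78 ± 0.18, 0.68 ± 0.071 and 1.08 ± 0.14 in CBFB KO, KO1 and KO2, in the last to 212% of WT. CDKN2C (p18), an inhibitor of CDK4 and CDK6, fell, with log2 fold changes of -0.64 ± 0.16, -1.29 ± 0.13 and -1.09 ± 0.19. They were the only genes of these lists past 2-fold in a table, CDKN1A in KO2 and CDKN2C in both RUNX1 clones. CDKN1C, named after its values were seen, rose by 0.41 ± 0.15 in KO1 and 0.95 ± 0.32 in KO2, with 0.22 ± 0.29 in CBFB KO. Of all genes 7.97%, 19.9% and 6.08% fell in these tables and 11.7%, 19.7% and 8.76% rose. Of the 7 genes in the list of CDK1 inhibition and its removal, 2, 5 and 3 fell, and 1 rose in each table. The one that rose was GADD45A, named after its values were seen, a stress gene that can hold CDK1 inactive, by 0.52 ± 0.19, 0.60 ± 0.12 and 0.69 ± 0.17.

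**Figure D5:**
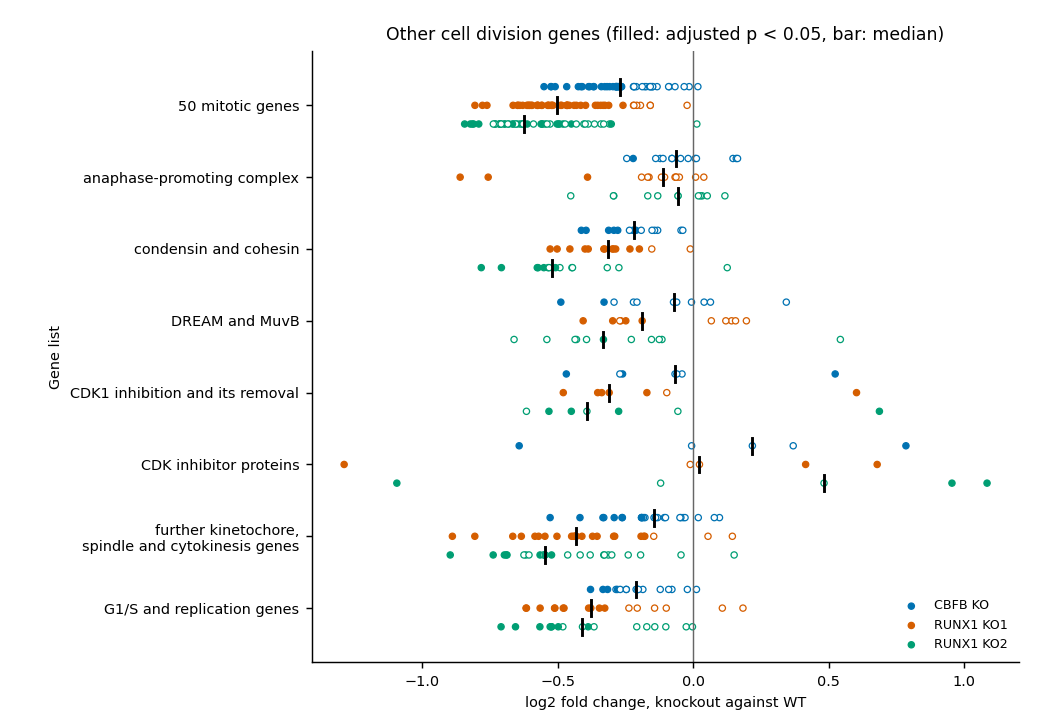
Log2 fold changes of KO against WT for the 50 mitotic genes and 7 further lists of cell division genes, 1 point a gene in each of the 3 tables, filled where the adjusted p-value was under 0.05, with the median of each list as a black bar. The bars of the mitotic genes are at -0.27, -0.50 and -0.63, those of the anaphase-promoting complex at -0.062, -0.11 and -0.056.

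Markers of other cell types were read beside the members. The 3 endothelial markers summed to at most 1.86 normalized counts in each group. The fibroblast list summed to 147 to 169 in WT and to 347 to 477 in KO, nearly all of it COL1A1. COL1A1 rose by 1.40, 1.75 and 1.36, while COL1A2, PDGFRB, DCN and LUM were below a mean of 10 or not listed. At these low means DCN went the other way, by -1.06 ± 0.28 (CBFB KO), -1.80 ± 0.31 (KO1) and -1.61 ± 0.37 (KO2). Each of its values passed the Wald test (adjusted p = 0.00155, 1.11e-07 and 0.000291). The leukocyte list summed to 145 to 235 in WT and 182 to 376 in KO, nearly all of it CD68, and PTPRC, CD3E and ITGAM were below a mean of 10 or not listed. The epithelial list summed to 193870 in WT and 181354 in CBFB KO, to 239488 and 294269 in the KO1 table and to 229878 and 279824 in the KO2 table, most of it KRT5 and KRT6A. Of its markers 4 of 7 rose and 1 fell in CBFB KO, 5 of 7 rose and 1 fell in KO1, and 1 of 6 rose in KO2. The basal markers did not move alike. The marker that fell was KRT5, a basal keratin, by 0.27 ± 0.10 in CBFB KO and 0.24 ± 0.088 in KO1. Its value in KO2 was -0.26 ± 0.12 (adjusted p = 0.160). KRT14, a basal keratin, rose by 2.97 ± 0.16 in CBFB KO and 2.95 ± 0.10 in KO1, and was not in the KO2 table. KRT17, another basal keratin, rose by 0.57 ± 0.17, 0.69 ± 0.11 and 1.27 ± 0.33. TP63, a transcription factor of basal cells, rose by 0.76 ± 0.11 and 1.08 ± 0.091 in CBFB KO and KO1, with 0.55 ± 0.29 in KO2 (adjusted p = 0.227). Their part in the changes of the mitotic genes was not tested.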

How the data were processed

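RNA of MCF10A cells was sequenced. The labels name a TruSeq mRNA kit, while the methods describe removal of ribosomal RNA. The submitters' processing notes name Trimmomatic, STAR, DESeq2 and build hg19. The read counter and annotation are not given in the sources used here. Columns with values of single samples numbered 0 in the 3 tables, and matrices named in the labels were not analysed here. They hold the authors' comparisons: the authors' deposited mean of normalized counts (a signal), log2 fold change with its SE, test score (fold change over SE), and deposited p-values with adjusted p-values (DESeq2 Wald test, Benjamini-Hochberg). Genes under the authors' filter on low means have no adjusted p-value and were not counted as tested.

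Symbols were matched and tables joined by Entrez ID. WT and KO levels were computed from mean and fold change, with equal group sizes. Genes with very low means had fold changes near 0 with small SEs, as COL1A2 in the CBFB table (0.025 ± 0.082, mean 0.145). The deposited fold changes may thus have been pulled toward 0, which the sources used here do not state. If so, the computed levels of WT and KO lie too close together. The sizes of the fold changes, the counts past 2-fold and the differences between tables may then be affected too. Members were called at an adjusted p-value under 0.05, and also with a 2-fold change, as in the study. CBFB KO was compared with each RUNX1 clone as described, by a test of the difference. A simulation run first drew normal errors from the same SEs, so it checks the calculation only and not whether those SEs hold. The RUNX1 clones have the same WT libraries and were not compared with each other. Transcript lengths came from GENCODE release 29, promoters from RefSeq GRCh38.p14, used for sequence only, since the authors' build differs. The 50 members, the other lists and the tests were chosen with earlier results of these data known. The members described singly were to be those that fell in CBFB KO and a clone, the 5 highest and 5 lowest of each table, 8 members whatever their values, and those that differed between CBFB KO and a clone. For completeness the rest are given too. Of the other lists, genes past adjusted p and 2-fold were to be named. Alternatives were a threshold of 0.01, adjustment over all genes with a p-value, a mean of at least 100, median centring, removal of the trend on length and GC content (splines with 5 degrees of freedom) and a 1.5-fold threshold. Scripts used Python 3.11.15, numpy 2.4.6, scipy 1.17.1, pandas 2.3.3 and patsy 1.0.2.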

Additional observations from a re-analysis of the deposited data

Results flagged for a closer look

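These members are given again because the difference between their fold changes in CBFB KO and in a RUNX1 clone passed the two-sided normal test of the difference itself, with an adjusted p-value under 0.05 over all genes tested in both tables. Against RUNX1 KO1 the difference (CBFB KO minus clone, log2) was 0.63 for CDC20, 0.59 for PTTG1, 0.57 for UBE2C, 0.52 for CDC25B, 0.51 for BIRC5, 0.47 for MYBL2, 0.45 for FOXM1, 0.44 for KIF2C and 0.43 for CDCA3. It was 0.43 for CCNB2, 0.42 for AURKB, 0.38 for NUF2, 0.36 for CCNB1, 0.36 for PLK1 and 0.32 for AURKA. Against RUNX1 KO2 it was 0.55 for SPC25, 0.54 for CDC25B, 0.54 for NUF2, 0.47 for FOXM1, 0.41 for PLK1 and 0.40 for TPX2. All are positive, that is, lowered less in CBFB KO, where the deleted gene and the experiment cannot be told apart. CDC25B, FOXM1, PLK1 and NUF2 passed against both clones, which share their WT libraries. After removal of the trend on transcript length and GC content, 5 of the 15 passed against KO1 and 4 of the 6 against KO2, and NUF2 passed against neither (adjusted p = 0.272 and 0.0617). No share of all genes is given after that removal.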

How the results depend on the processing

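No paired analysis was possible because the tables used here hold no value per library, and for the same reason leaving out each replicate in turn was not run. At an adjusted p-value threshold of 0.01 the members that fell were 18 in CBFB KO and 17 in RUNX1 KO2, 5 fell in all 3 tables, and those that differed from CBFB KO 6 against KO1 and 1 against KO2. A 1.5-fold threshold in place of 2-fold gave 14 members in KO1 and 17 in KO2. Removal of the trend on transcript length and GC content, chosen for this comparison after seeing the data, gave 6 members that differed from KO1. It turned the sign of MYBL2 in CBFB KO (-0.12), BUB3 in CBFB KO (0.027) and PTTG1 in KO2 (-0.071), none of which passed the test before or after. The cause of these changes was not tested, beyond the stricter or looser threshold. Adjustment over all genes with a p-value ended the calls of NDC80 and KIF11 in KO2 (adjusted p = 0.0503 and 0.0562). Median centring ended the call of INCENP in KO1 and left 12 members that differed from KO1. A mean of at least 100 changed no call of a member in the 3 tables and left 5 members that differed from KO2. The medians of the members kept their direction under every alternative run for them. No share of all genes is given for the counts under these alternatives, so whether they exceed such a share is not shown.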
